A study of Arabidopsis thaliana with 3 samples.

Results

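The genes described here are 6 Aux/IAA genes (IAA1, IAA2, IAA5, IAA6, IAA19 and IAA29) and 4 GH3 genes (GH3.1, GH3.2, GH3.3 and GH3.5) of Arabidopsis thaliana, chosen by locus because auxin is known to induce them. All 10 loci were on the array, with 12 of its 43603 probes. IAA2 and GH3.5 had 2 probes each and the other genes 1, among 25383 loci with a matched probe. Whole-seedling RNA was read on 3 Agilent arrays, each with 2 colours. On 2 of them, fe-1 seedlings (Cy5) were set against wild type of the Ler accession (Cy3), both untreated and collected on day 7 at zeitgeber time 15 h, and the labels call the 2 arrays biological replicates. The third array set seedlings of 1 line, 35S::FE-GR (#5), given 1 µM dexamethasone (Dex) for 2 h (Cy5) against mock-treated seedlings of that line (Cy3), on day 7 at zeitgeber time 14 h. All seedlings grew at 22 °C in long days on medium with 1% sucrose. FE (AT1G79430, also named APL) encodes a Myb-related factor of the phloem. The 35S promoter is active in most cell types, so FE-GR is not limited to the phloem. Arrays of seedlings without FE-GR given Dex were not analysed here, so effects of Dex itself and of FE-GR cannot be told apart.

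Auxin acts through a short pathway. It binds TIR1/AFB receptors, which then mark Aux/IAA proteins for breakdown and so free the ARF transcription factors that Aux/IAA proteins hold back. ARFs switch on early genes, among them Aux/IAA genes themselves, which renew the repressors, and group II GH3 genes, whose enzymes join auxin to amino acids and lower the free hormone. Transcripts of both families are widely read as reporters of auxin response, and IAA19 and IAA29 are also known targets of the PIF factors that act in shade and warmth.

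All 12 probes were well above background in every channel of every array. Well above background were between 72.1% and 74.8% of all gene spots in Cy5 and between 75.1% and 78.1% in Cy3, and the number of arrays limits the precision. Ratios are on the log2 scale, with fe-1 or Dex as the numerator, and ± is the SD of 2 arrays. Levels are log2 intensities after loess, and they were scaled between the fe-1 arrays but not between the fe-1 and Dex arrays. Levels of different probes are not comparable. The dyes were never swapped, so a probe's dye effect cannot be told apart from the genotype or the treatment, and both fe-1 arrays lay on 1 slide. The marker genes of leaf and root were well above background in all channels. All 4 seed storage markers fell in fe-1, with a sum of 486 to 1230 in fe-1 against 2080 to 3120 in wild type. Of 5 root and root hair markers, 4 were lower in fe-1 by the limma test, namely COBL9 (-1.31), RHS19 (-1.25), EXPA7 (-1.05) and EXPA18 (-0.86), with a summed linear level of 1040 to 1210 in fe-1 against 2340 to 2500 in wild type. The other, PYK10, read -0.15, was not called and made up most of the list's sum of 132000 to 141000 in fe-1 against 144000 to 162000 in wild type. Both leaf photosynthesis markers were higher in fe-1, with a sum of 414000 to 425000 in fe-1 against 292000 on each array in wild type. These sums rest on the brightest probes. Other probes ran from 0.04 to 0.56 for RBCS1A and from -0.04 to 0.48 for LHCB1.3. The phloem companion cell marker SUC2 read -0.06 in fe-1 (other probes -0.15 and -0.10) and was not called. Its linear level was 1880 and 2130 in fe-1, against 2110 and 2070 in wild type. The shoot meristem marker STM (-0.27, other probe 0.04) and the flower marker PI (-0.31) were called lower. The flower marker AP3 (0.07) was not called. Fewer cells of a type and less RNA per cell cannot be told apart in whole seedlings, and the part of these markers in the results below was not tested.

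In fe-1 seedlings 3 of the 4 GH3 genes rose slightly and 1 of the 6 IAA genes fell. By limma, GH3.2, GH3.3 and GH3.5 were called higher, IAA1 lower, and the other 6 genes did not pass an adjusted p under 0.05. The call rate over all 20680 genes tested was 20.2% (8.86% higher and 11.3% lower), and none of the 4 called genes reached 1.5-fold. On both arrays each of the 4 GH3 genes read above 0, while 5 of the 6 IAA genes read below 0. Of all 20680 genes tested, 7117 read above 0 on both arrays and 8171 below 0 on both. The median ratio was 0.22 over the 4 GH3 genes and -0.07 over the 6 IAA genes, against -0.01 over all genes tested. These 4 calls depended on the processing. With the spots of non-uniform local background kept in the background fit, with the scanner's processed signals or with the series value table, limma called 0 of the 10 genes (2, 4 and 3 of them at an unadjusted p under 0.05). Of all 20684 genes tested in these settings, 2258, 6459 and 6034 had an unadjusted p under 0.05 by limma.

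GH3.3 (AT2G23170), an auxin-conjugating enzyme gene, had the largest ratio of the 10 in fe-1 as processed here, while GH3.2 had the largest with the scanner's processed signals (0.63, against 0.50 for GH3.3). The level of GH3.3 was 9.81 and 9.55 in fe-1, against 9.26 on both arrays in wild type. Both fe-1 levels lay above both wild-type levels. GH3.3 was 1.34-fold higher in fe-1, a log2 ratio of 0.42 ± 0.18 (limma adjusted p = 0.00616, higher on 2 of 2 arrays). The adjusted p stayed under 0.05 in 6 of 9 alternative settings and was 0.375 at most.

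GH3.5 (AT4G27260, listed as WES1), whose enzyme conjugates auxin and salicylate, and GH3.2 (AT4G37390, listed as BRU6), an auxin-conjugating enzyme gene, were also called higher. For GH3.5 the brighter probe had levels of 9.86 and 9.79 in fe-1, against 9.50 and 9.69 in wild type. Its ratio was 0.23 ± 0.18 (limma adjusted p = 0.0489), and the dimmer probe read 0.19 on replicate 1 and 0.08 on replicate 2. For GH3.2 the levels were 6.76 and 6.69 in fe-1, against 6.45 and 6.57 in wild type. Its ratio was 0.21 ± 0.13 (limma adjusted p = 0.0436) and ranged from 0.06 to 0.63 over 9 alternatives, with 0.63 by processed signals (adjusted p = 0.0595). GH3.2 was dim on the fe-1 arrays too, with median spot intensities of 115 and 122.5 in fe-1 over a local background of 67. The wild-type channels read 46 over 19.5 and 55 over 16. For both genes the fe-1 levels lay above the wild-type levels, by a margin near the spread between arrays. The calls held in 4 of 9 alternatives for GH3.5 and in 3 of 9 for GH3.2. GH3.1 (AT2G14960), the fourth GH3 gene, read 0.16 on replicate 1 and 0.11 on replicate 2 and did not pass (adjusted p = 0.0982). All 4 GH3 genes read higher on replicate 1 than on replicate 2.

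IAA1 (AT4G14560), a repressor gene induced within minutes by auxin, was the only one of the 10 called lower in fe-1. Its level was 9.02 and 8.90 in fe-1, against 9.24 and 9.15 in wild type, so that the groups did not overlap. IAA1 fell by 0.23 ± 0.011, which is 1.18-fold (limma adjusted p = 0.0153). The call held in 6 of 9 alternatives, with an adjusted p between 0.0126 and 0.527.

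**Figure D1:**
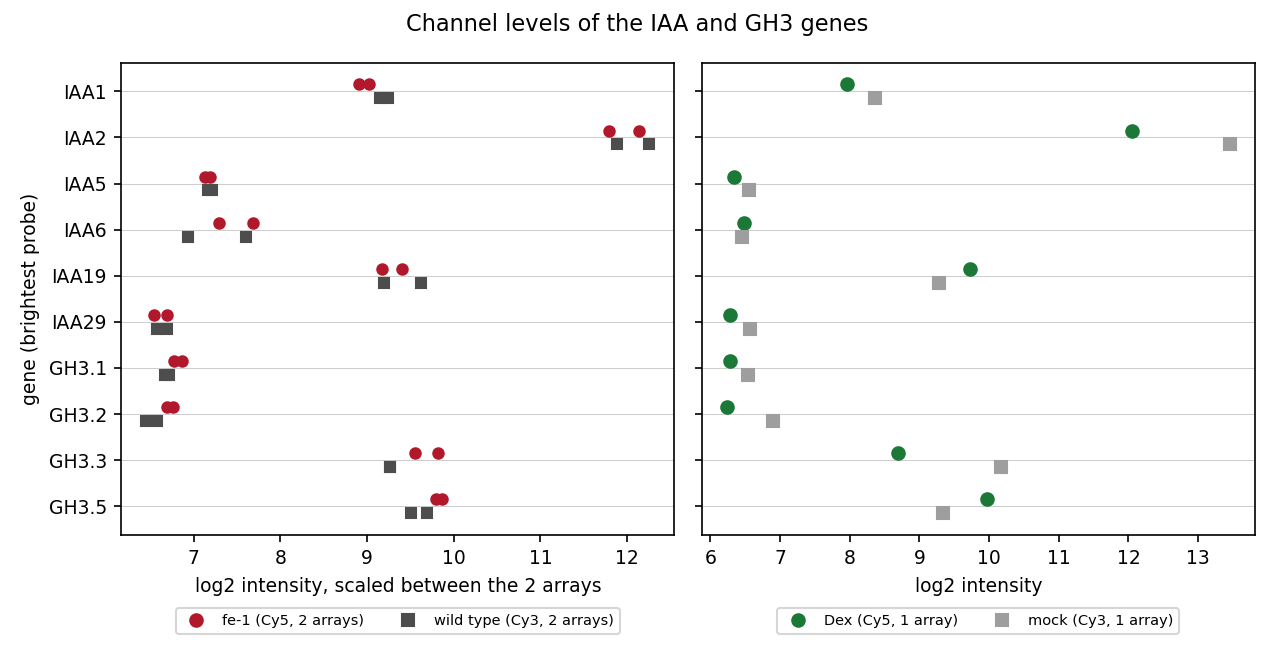
Channel levels (log2 intensity, horizontal axis) of the 10 genes, each from its brightest probe, with fe-1 (circles) and wild type (squares) on 2 arrays at left and Dex (circle) and mock (square) on 1 array at right. Both fe-1 points of IAA1 lie left of both wild-type points and both of GH3.3 lie right of them, while IAA2 and GH3.3 have the widest gap between Dex and mock.

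The other IAA genes did not pass in fe-1. IAA2 (AT3G23030), a close relative of IAA1, had levels of 11.79 and 12.13 in fe-1, against 11.88 and 12.25 in wild type. Its ratio was -0.10 ± 0.026 (limma adjusted p = 0.168), and its dimmer probe read -0.03 on replicate 1 and 0.10 on replicate 2. The brighter probe read below 0 within each array (-0.09 and -0.12), although its levels overlapped across arrays. The probes did not share a sign on replicate 2. IAA19 (AT3G15540), a repressor gene of growth responses to light and gravity, read -0.02 on replicate 1 and -0.21 on replicate 2 (adjusted p = 0.194). IAA6 (AT1G52830, also SHY1), a repressor of hypocotyl and root growth, read 0.36 on replicate 1 and 0.08 on replicate 2 (adjusted p = 0.0652). Median centring in place of loess put IAA6 under the threshold (adjusted p = 0.0436). The repressor genes IAA5 (AT1G15580) and IAA29 (AT4G32280) lay nearest to 0, at -0.03 ± 0.0098 (adjusted p = 0.650) and -0.02 ± 0.021 (adjusted p = 0.779).

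**Figure D2:**
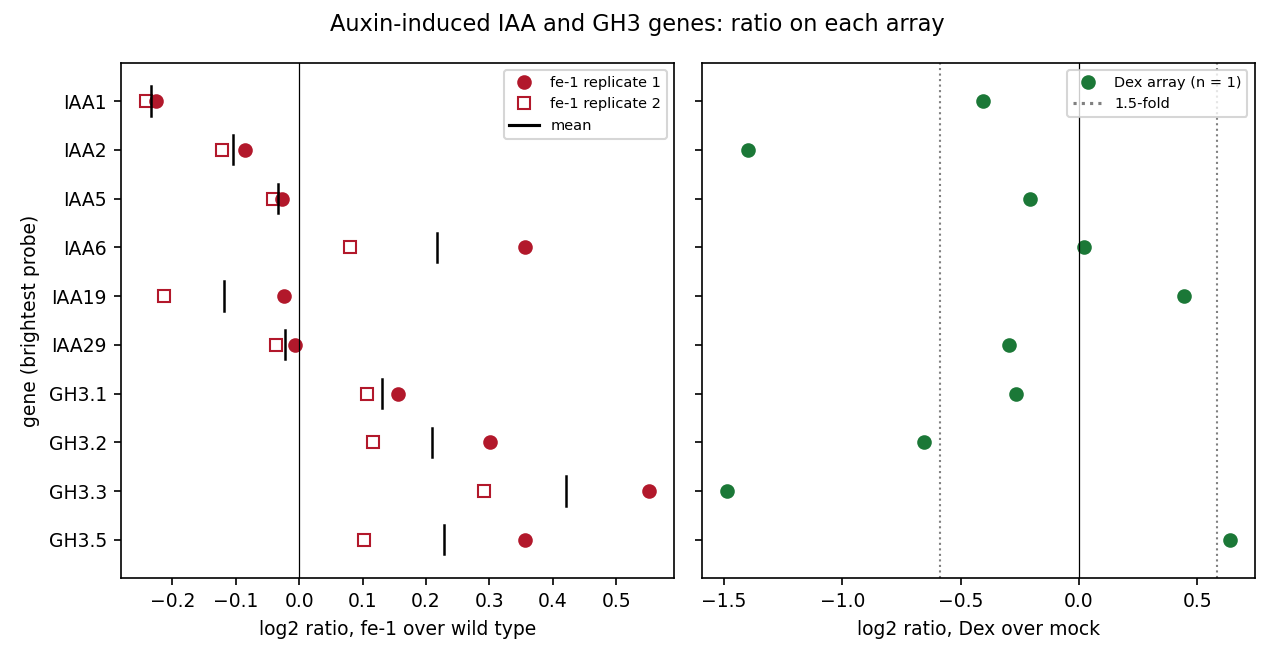
Log2 ratio of each gene on each array, fe-1 over wild type at left (filled circle for replicate 1, open square for replicate 2, bar for the mean) and Dex over mock at right (1 array, dotted lines at 1.5-fold). The 4 GH3 genes lie right of 0 in fe-1 on both arrays, whereas IAA2, GH3.2 and GH3.3 lie past 1.5-fold to the left on the Dex array.

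After 2 h of Dex most of the 10 genes read lower than with mock, GH3.3 and IAA2 by the most. The Dex array had no replicate, so its ratios have no error and no test, and genes are counted past 1.5-fold. Of the 10 genes, GH3.3, IAA2 and GH3.2 were lower past 1.5-fold, GH3.5 was higher by its brighter probe only and 6 were within it. Over all 20494 genes kept, 15% were past 1.5-fold, 6.97% higher and 8.07% lower. Past 2-fold, 0 of the 10 were higher and 2, IAA2 and GH3.3, were lower, against 6.53% of all genes in either direction, 3.58% higher and 2.95% lower. The median ratio of the 10 genes was -0.28, against 0.01 over all genes, and 3 of the 10 read above 0. Beside these ratios, 0 of 5 root markers passed 1.5-fold, with ratios between -0.31 and 0.36. Without PYK10 their summed level was 1730 with Dex, against 1750 with mock, and with it 93600 with Dex, against 105000 with mock. The leaf markers summed to 486000 with Dex, against 333000 with mock, by the brightest probes. RBCS1A read 0.62 (other probes -0.01 to 0.59) and LHCB1.3 0.43 (other probes -0.42 to 0.31). The phloem companion cell marker SUC2 had 29300 with Dex, against 3200 with mock. The part of these markers in the ratios was not tested. With the scanner's processed signals 6 of the 10 were lower past 1.5-fold, as IAA5, IAA29 and GH3.1 joined the 3. Loess set the centre of the ratios. With median centring the median over all genes was 0.22, 71.9% of the genes past 1.5-fold were higher (46.3% with loess), and of the 10 genes 2 were higher and 3 lower.

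GH3.3 had a level of 8.69 with Dex, against 10.17 with mock. The ratio of -1.49, or 2.80-fold, was the 197th lowest of 20494 genes. IAA2 had a level of 12.05 with Dex, against 13.45 with mock, a ratio of -1.40, or 2.64-fold, the 241st lowest. Its dimmer probe gave the same direction, with 9.63 with Dex, against 10.75 with mock, a ratio of -1.12. Over 9 alternative settings the ratio ranged from -1.58 to -1.21 for GH3.3 and from -1.41 to -1.06 for IAA2.

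The probes of GH3.5 disagreed on the Dex array. The brighter probe had a level of 9.97 with Dex, against 9.33 with mock, a ratio of 0.64. The dimmer probe had 7.00 with Dex, against 8.06 with mock, a ratio of -1.06. Both probes are annotated to the same transcript, both were well above background, and the mean of the probes read -0.21, so no direction is given for GH3.5 with Dex. Probe sequences were not used here, so shared sequence with other GH3 genes was not tested. In fe-1 the same probes both read above 0 on both arrays.

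**Figure D3:**
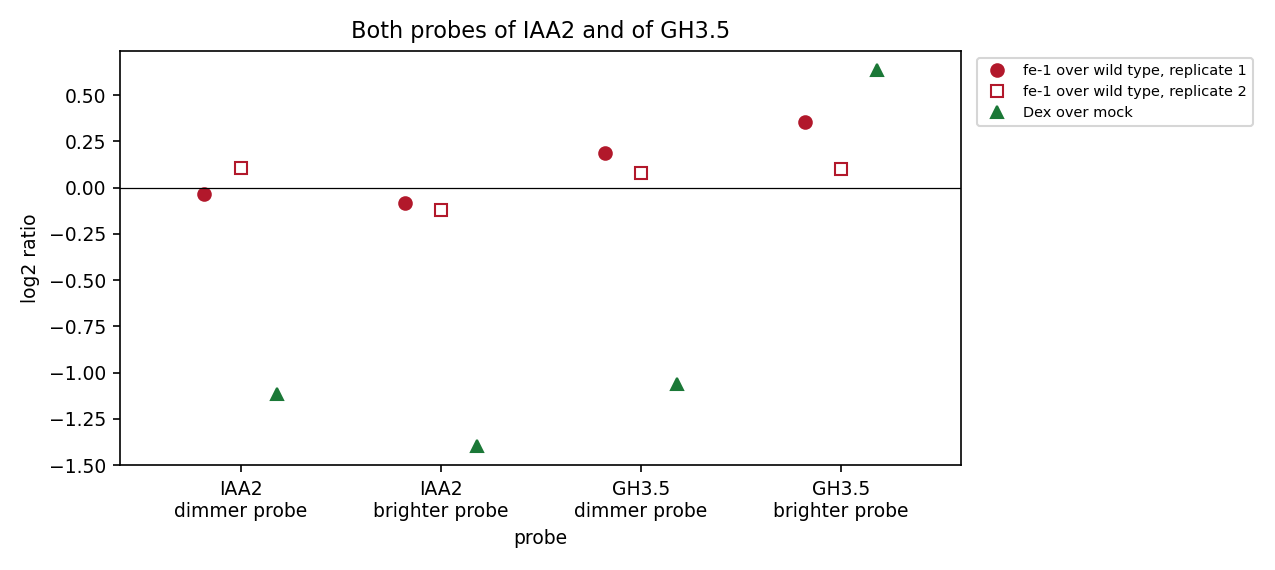
Log2 ratio of both probes of IAA2 and of GH3.5 (circles and squares, fe-1 over wild type on replicates 1 and 2; triangles, Dex over mock). The triangles of IAA2 lie at -1.12 and -1.40, while those of GH3.5 lie on opposite sides of 0.

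GH3.2, GH3.1, IAA29, IAA5 and IAA6 were dim on the Dex array. The scanner's processed signals, which differ in background, offset and dye normalization at once, read lower than reported for the first 4 of them. With no background correction those 4 read -0.75, -0.33, -0.44 and -0.24. GH3.2 had a level of 6.24 with Dex, against 6.89 with mock, a ratio of -0.66. The scanner's processed signals gave -1.65. The median spot intensity of GH3.2 was 89 with Dex over a local background of 63, against 67 with mock over 15. GH3.1 read -0.27 (-1.05 with processed signals), IAA29 -0.30 (-1.12) and IAA5 -0.21 (-0.65). These 4 genes read below 0 both ways. IAA1 read -0.41 with a level of 7.96 with Dex, against 8.36 with mock. IAA19 went the other way, with 9.73 with Dex, against 9.28 with mock, a ratio of 0.45. IAA6, with a median spot intensity of 105 with Dex over a background of 64.5, against 45 with mock over 19.5, read 0.02, with 0.19 by processed signals and -0.21 with median centring.

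**Figure D4:**
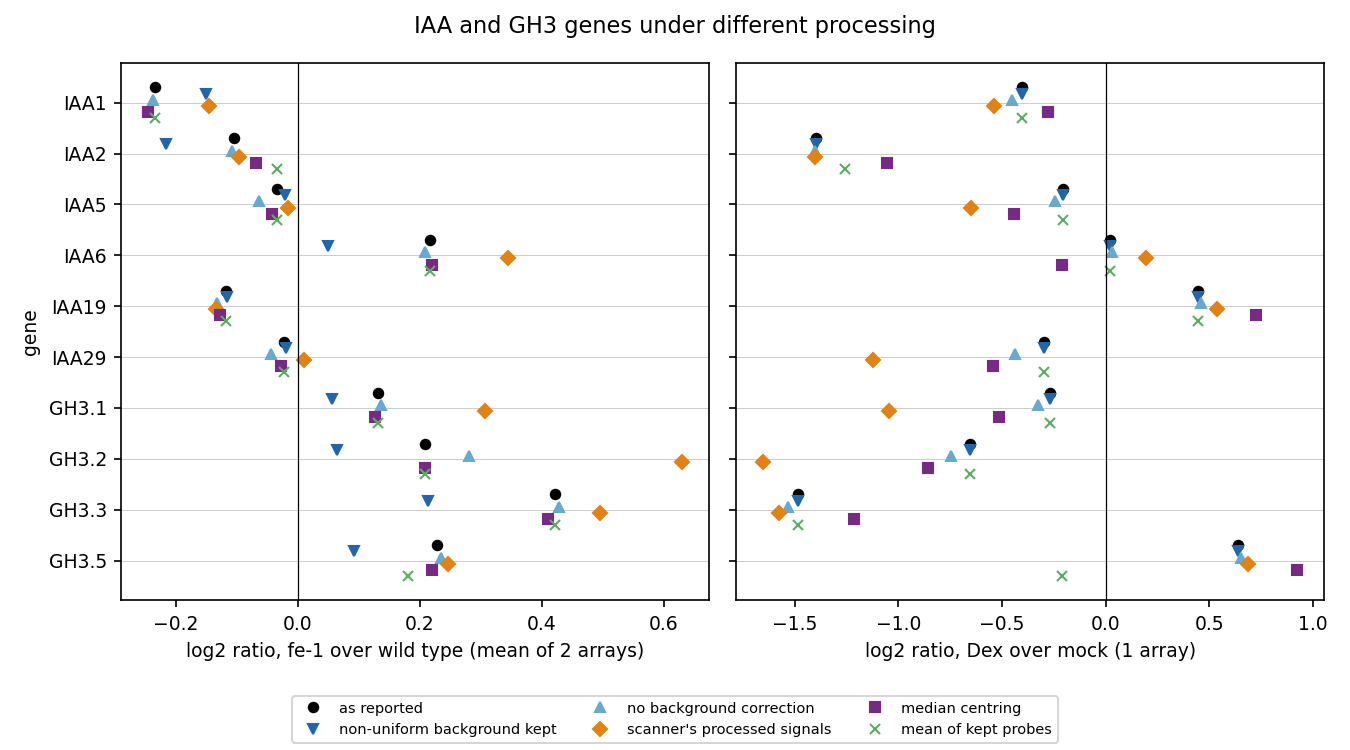
Log2 ratio of each gene as reported and under 5 other ways of processing (symbols), fe-1 over wild type at left and Dex over mock at right. On the Dex array the scanner's processed signals move IAA29, GH3.1 and GH3.2 left to between -1.65 and -1.05, and the mean of kept probes takes GH3.5 across 0.

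By a measure of likeness over 3 arrays, the Euclidean distance between log2 ratios across 19979 genes, the 3 genes nearest to GH3.3 were AT1G72430 (distance 0.117), AT5G44005 (0.177) and AT5G57760 (0.204). AT1G72430, also named SAUR78, is a small auxin upregulated RNA gene and read 0.54 and 0.20 in fe-1 and -1.42 with Dex. The 3 genes nearest to IAA2 were MYB20 (0.0539), PLP9 (0.0832) and EDA21 (0.0893). Other members had a Dex ratio under 1 in size, and no likeness was sought for them.

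Around the 10 genes, 123 genes in 10 lists were read, of which 113 were tested in fe-1 and 114 kept on the Dex array. These lists hold auxin pathway genes, shade and PIF response genes and other GH3 genes taken by family, among them GH3.11 (listed as JAR1) and GH3.12 (listed as PBS3). By limma 8 rose and 22 fell in fe-1, against 8.86% and 11.3% of all genes, and their median was -0.02. With the non-uniform background spots kept or with the series value table these counts were 0, and with processed signals 1 rose and 1 fell. On the Dex array 9 were higher and 26 lower past 1.5-fold, against 6.97% and 8.07% of all genes, with a median of -0.17.

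The other Aux/IAA repressor genes included 8 of 20 that fell in fe-1 and 1 that rose, against 11.3% and 8.86% of all genes, with a median of -0.10. With median centring 4 fell and 1 rose, against 1603 and 1469 of all 20680 genes. IAA16 fell by 0.45 ± 0.068 (limma adjusted p = 0.00149), IAA31, which was well above background on 1 of 2 fe-1 arrays, by 0.37 ± 0.047 and IAA28, a repressor of lateral root formation, by 0.36 ± 0.13. IAA18 rose by 0.32 ± 0.043 (adjusted p = 0.00517), and its other probes read 0.16 and 0.20. With Dex, 4 of the 20 were higher past 1.5-fold, against 6.97% of all genes, among them IAA26 at 1.15, IAA18 at 1.10 and IAA11 at 0.70. IAA4 at -1.13 (other probe -0.99) was the only one lower past 1.5-fold, against 8.07% of all genes. With median centring 7 were higher and 2 lower with Dex, against 3117 and 1219 of all 20494 genes.

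The other GH3 genes did not move together. Of 6 tested in fe-1, 2 rose and 1 fell, against 8.86% and 11.3% of all genes. Of 6 kept on the Dex array, 1 was higher and 2 lower past 1.5-fold, against 6.97% and 8.07% of all genes. In fe-1, GH3.6, an auxin-conjugating enzyme gene of the same group, rose by 0.30 ± 0.14 and GH3.10 by 0.28 ± 0.13, while GH3.17 fell by 0.22 ± 0.078 (limma adjusted p between 0.0130 and 0.0258, 3 of 6 not passing). With Dex, GH3.6 read 1.18, whereas GH3.17, which conjugates auxin to glutamate, read -1.92 and GH3.10 read -0.83. The directions of GH3.3 and GH3.6 with Dex were thus opposite.

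The SAUR genes, small early genes that promote cell expansion, were the list with the lowest median on the Dex array, -0.69. Of 14 kept, 9 were lower past 1.5-fold and 0 higher, against 8.07% and 6.97% of all genes. SAUR15 and SAUR19 were not well above background with Dex. Requiring every channel well above background left 12 genes, 8 lower and 0 higher, against 1631 and 1385 of all 19908 genes. With median centring 10 were lower and 0 higher, against 1219 and 3117 of all 20494 genes. With processed signals 11 were lower and 0 higher, against 2593 and 2001 of all 20494 genes, and the median was -1.41. SAUR63 read -2.29, SAUR76 -1.99 and SAUR14 -1.22. In fe-1, SAUR76 rose by 0.51 ± 0.026 (limma adjusted p = 0.000663), SAUR9 by 0.24 ± 0.083 and SAUR14 by 0.20 ± 0.014. SAUR19 fell by 0.19 ± 0.062, and 10 did not pass. Of all genes tested, 8.86% rose and 11.3% fell. Many SAUR genes are near-identical neighbours, so their probes may share transcripts. Of the other early auxin-induced genes, limma called 0 of 10 in fe-1, against 20.2% of all genes. An unadjusted p under 0.05 was found for 3 of the 10, against 7390 of all 20680 genes. With Dex, LBD16, a factor gene of lateral root initiation, read -1.21 and ACS8, an ethylene synthesis gene, -0.66, and the other 8 were within 1.5-fold. With processed signals 7 of the 10 were lower, against 2593 of all 20494 genes. Their median was then -1.03, against -0.22 as processed here. LBD18, LBD33, PRE1 and PRE5 were not well above background with Dex. Requiring every channel well above background kept 6 genes on the Dex array, with a median of -0.43. Of these 2 were lower past 1.5-fold, against 1631 of all 19908 genes. Median centring called 2 of the 10 higher and 1 lower in fe-1, against 1469 and 1603 of all 20680 genes.

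Of 16 transport genes on the Dex array, 3 were lower and 2 higher past 1.5-fold. Of 12 synthesis genes 2 were lower and 0 higher, and of 9 genes of conjugate hydrolysis and inactivation 3 were lower and 1 higher, against 8.07% lower and 6.97% higher of all genes. The medians were -0.05, -0.18 and -0.04, and those of transport and of hydrolysis and inactivation were 0.13 and 0.18 with median centring. PIN3, an auxin efflux carrier gene, read -2.00 (other probe -2.10), its relative PIN7 -1.71 and the influx carrier gene LAX3 -0.82, while the influx carrier gene AUX1 read 0.67 and the efflux transporter gene ABCB19 0.64. CYP79B2, an enzyme of the indole-3-acetaldoxime route, read -1.41 and its relative CYP79B3 -0.71, and the other 10 synthesis genes were within 1.5-fold. DAO2, a relative of the auxin oxidase gene DAO1, read -1.44, the glucosyltransferase gene UGT74E2 -0.90 and the methyltransferase gene IAMT1 -0.76 (other probe -0.18), and ILL6, a conjugate hydrolase gene, read 1.02. In fe-1, 4 of 15 transport genes, 0 of 12 synthesis genes and 3 of 9 of the hydrolysis and inactivation genes fell, against 11.3% of all genes. Of the 12 synthesis genes 1 rose, against 8.86% of all genes. ABCB1 fell by 0.40 ± 0.075, DAO2 by 0.36 ± 0.080, IAMT1 by 0.28 ± 0.037, PIN5 by 0.23 ± 0.10, UGT74E2 by 0.23 ± 0.053 and ABCB4 by 0.22 ± 0.049, and YUC3, an auxin synthesis gene, rose by 0.24 ± 0.091 (limma adjusted p between 0.00262 and 0.0238).

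Of the receptor genes 2 of 6 fell in fe-1, and of the ARF genes 2 of 15, against 11.3% of all genes. The receptor genes TIR1 and AFB5 fell in fe-1 by 0.26 ± 0.071 and 0.20 ± 0.018 (limma adjusted p = 0.0138 and 0.0253), and 4 others did not pass. On the Dex array 0 of 6 receptor genes were past 1.5-fold, against 15% of all genes, with a median of -0.15. Median centring put 2 of the 6 higher and 0 lower with Dex, against 3117 and 1219 of all 20494 genes, with a median of 0.16. Among the ARF genes, ARF9 fell by 0.29 ± 0.039 and ARF18 by 0.19 ± 0.079. With Dex, ARF9 read 0.67, and ARF3 (-0.79), ARF16 (-0.78) and ARF2 (-0.59) were lower, so that 1 of 15 was higher and 3 lower past 1.5-fold, against 6.97% and 8.07% of all genes. In the shade and PIF list, 1 of 6 genes rose and 1 fell in fe-1, against 8.86% and 11.3% of all genes. PIF4 rose by 0.24 ± 0.12 and XTH15, a wall-modifying enzyme gene, fell by 0.36 ± 0.11. XTH15 read -0.83 with Dex, and the other 4 genes did not pass in fe-1. FE itself read -0.17 ± 0.031 in fe-1 (adjusted p = 0.0436) and -0.26 with Dex, and its other probes read -0.0049 and 0.06 in fe-1. The labels do not give the fe-1 lesion and both Dex and mock seedlings carry FE-GR, so the level of FE checks neither label.

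**Figure D5:**
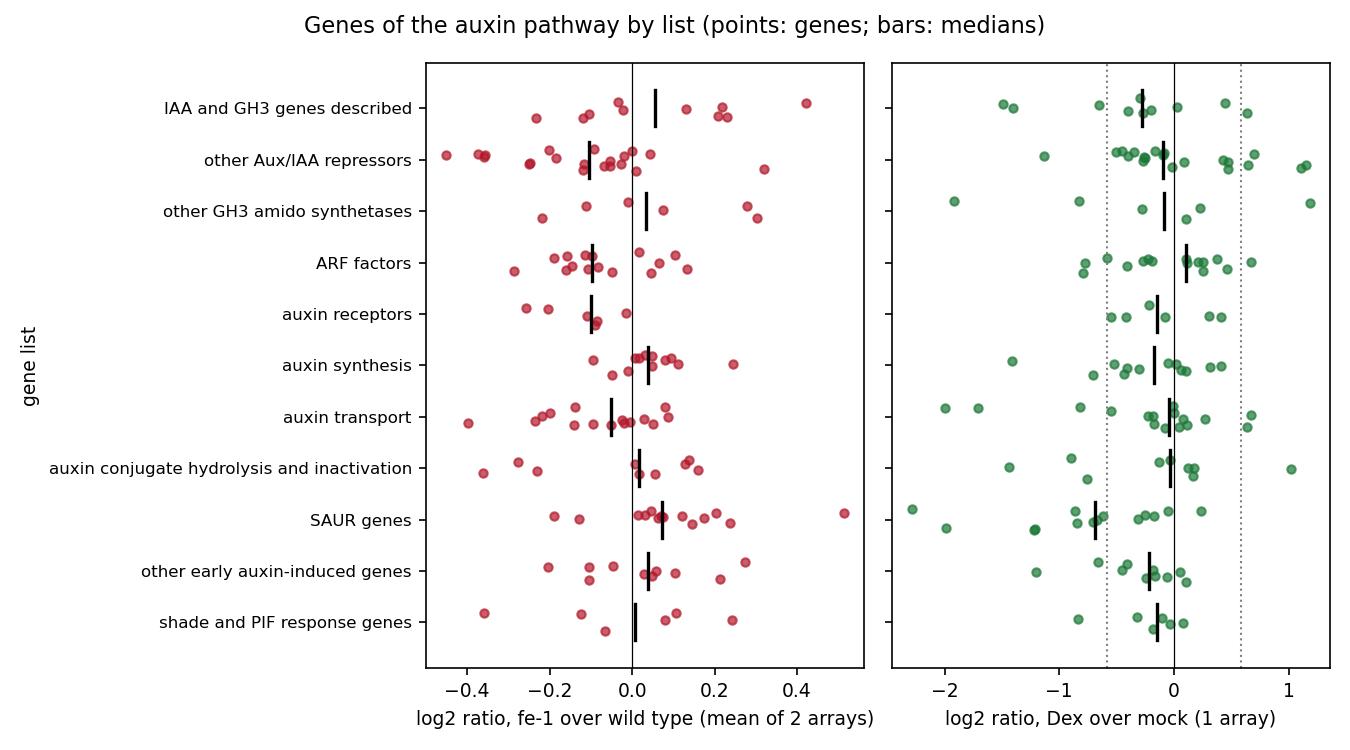
Log2 ratios of the genes of each list (points, bars for medians), fe-1 over wild type at left (mean of 2 arrays) and Dex over mock at right (1 array, dotted lines at 1.5-fold). The SAUR genes have a median of -0.69 on the Dex array, with 9 of 14 left of the lower dotted line, and the medians of all lists in fe-1 lie between -0.10 and 0.07.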

How the data were processed

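Two-colour Agilent arrays gave spot intensity values per channel, deposited by the authors without normalization. The file headers name Feature Extraction 10.7.3.1, and the submitters' processing notes name 10.7. The files also hold processed signals, which per the file headers were background-subtracted and dye-normalized, besides a deposited log10 ratio of Cy5 over Cy3. The authors' deposited series value table holds log2 ratios, which differed from that ratio by at most 0.005. Labelled cRNA came from 0.1 µg of RNA, per the labels' protocols.

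Median intensities were background-corrected with normexp (offset 50, gene spots only) and loess-normalized in limma 3.58.1 under R 4.3.3. Spots with a non-uniform local background (32, 0 and 0 of 43803 gene spots, left out before normexp) and outlier spots (24, 10 and 8) were left out, and 0 spots were saturated. Where a probe had several spots, their mean was used. Accessions of 34285 probes matched a RefSeq locus (TAIR10.1 gene table, used for names only), and 9318 did not. Coordinates were left out because the array was annotated on an earlier assembly.

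Probes needed a well-above-background flag in 2 or more of the 4 fe-1 and wild-type channels, or in either channel of the Dex array, and the brightest such probe stood for its gene. The fe-1 ratios were tested against 0 by lmFit and eBayes over 20680 genes (residual df 1, prior df 6.47), at a Benjamini-Hochberg adjusted p under 0.05. The arrays differed with a median SD of 0.052, and p-values measure only the spread of these samples. The Dex array was described past 1.5-fold. Alternatives changed the background step, signal, normalization, filter, probe summary and fold threshold.

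All 10 genes are named. From each list, up to 3 genes in each direction with the largest called ratios are named in each comparison, besides FE and the nearest genes of members at or beyond 1 on the Dex array. The members and lists were chosen with earlier results of these data known.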

Additional observations from a re-analysis of the deposited data

How the results depend on the processing

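By limma 3 of the 10 genes rose and 1 fell in fe-1. With the non-uniform background spots kept, 0 were higher and 0 lower, and over all genes 7 and 43, against 1832 and 2337 as reported. With the scanner's processed signals, 0 and 0 of the 10 were called, and 139 and 411 of all genes. With the series value table, 0 and 0 of the 10 and 0 and 0 of all genes were called by limma (6034 of all genes at an unadjusted p under 0.05). Without a filter on dim probes 1 of the 10 was higher, and with the mean of kept probes 1. IAA29, at -0.02 as reported, turned to 0.0101 in fe-1 when processed signals were used and to 0.0100 in the series value table, and was called in neither. On the Dex array, 6 of the 10 and 2593 of all genes were lower past 1.5-fold with processed signals, and 6 and 2589 by the series value table, against 3 and 1654. With median centring 2 of the 10 and 3117 of all genes were higher, against 1 and 1428. With the mean of kept probes 0 of the 10 were higher, since GH3.5 turned to -0.21. At 2-fold 0 of the 10 were higher, and of all genes 734 were higher and 605 lower. The causes were not tested, except that GH3.5 rests on probes that disagree. Keeping control spots in the normexp fit, an alternative chosen after seeing the data, moved all 4 member counts by 0. Leaving out 1 fe-1 array gave each ratio on the other, with no test and no sign change among the 10, from 0.29 to 0.55 for GH3.3 and -0.24 to -0.23 for IAA1. Each ratio already pairs 2 samples on 1 array, so the fe-1 test of ratios against 0 is paired within arrays. No further pairing was possible, and the Dex comparison has no second array. Signal over background limits GH3.1, GH3.2, IAA5, IAA6 and IAA29 on the Dex array, and GH3.1, GH3.2 and IAA29 on the fe-1 arrays too.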

Other observations

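The fe-1 and Dex arrays share no samples but have the same dye orientation, and some genes of the auxin pathway were called in both. Of 112 genes of the pathway lists read in both comparisons, 16 were called in fe-1 and past 1.5-fold with Dex, 8 in the same and 8 in opposite directions. Over all 19979 genes read in both, 978 were called in both, 44.9% of them in opposite directions. Those lower in fe-1 and higher with Dex were IAA11 (-0.18 and 0.70), IAA26 (-0.20 and 1.15), IAA28 (-0.36 and 0.64) and ARF9 (-0.29 and 0.67). Those higher in fe-1 and lower with Dex were SAUR76 (0.51 and -1.99), SAUR14 (0.20 and -1.22), SAUR9 (0.24 and -0.67) and GH3.10 (0.28 and -0.83), and among the 10 genes GH3.3 (0.42 and -1.49) and GH3.2 (0.21 and -0.66). DAO2, UGT74E2, IAMT1, GH3.17, SAUR19 (not well above background with Dex) and XTH15 were lower in both, and IAA18 and GH3.6 were higher in both. Of the 10 genes, 3 were called in both. The third, GH3.5, was higher in both by its brighter probe (0.23 and 0.64), but its probes disagreed with Dex. These genes were picked out after their values were seen, and the overlap was not tested.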
